A study of Arabidopsis thaliana with 31 samples.

Results

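The CHG and CG DMRs are the differentially methylated regions whose cytosine methylation in the CHG or in the CG sequence context (H stands for A, C or T) differed between the plants harvested at time point 0 and those harvested 24h later, after a UV-C exposure. Every region of the 10 deposited DMR lists with the context CHG or CG was taken and a repeated line was counted once, which gave 1250 of 24646 DMRs (5.07%). Of these, 1200 were CHG DMRs and 50 were CG DMRs, while the other 23396 DMRs of the lists lay in the CHH context. A region entered a list only when its methylation level differed by at least 40 percentage points in CG, 20 points in CHG or 10 points in CHH, with a gain called a hyper-DMR and a loss a hypo-DMR. Each member therefore changed by construction, and its change is given below as a description without a test.

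The levels came from whole-genome bisulfite sequencing of *Arabidopsis thaliana* leaves (Col-0 accession) at 2 time points, in plants that the labels give as 18 days old and that received 3000 J/m2 of UV-C. The 5 genotypes were wild type (WT), *uvr3 phrI* (a double mutant without both photolyases), *ddb2* (allele *ddb2-3*, without the photolesion recognition factor DDB2), *dcl4* (allele *dcl4-2*, without the Dicer that makes 21-nt siRNAs) and *ago1* (allele *ago1-27*, a partial loss of the Argonaute that uses small RNAs). By the UV-C methods, time point 0 was harvested immediately upon irradiation, so by that account plants of both time points had received UV-C. The study's results text and figure legends instead describe time point 0 as before irradiation or untreated. The data do not settle which holds. Each genotype and time point is 1 library made from pooled leaves of 2 biological replicates, which leaves no replicate error, no p-value and no test between genotypes. All intervals below are 95% intervals that cover counting error only. The lists give no read numbers, so the depth behind each level is unknown. Among the bisulfite libraries of the study's own table, those of WT and *ddb2* at time point 0 had the fewest mapped reads, WT fewest. Both had fewer than the later library of the same genotype. This bears on all WT and *ddb2* members, and its part in their changes was not tested.

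In plants, MET1 copies CG methylation onto the new strand at each replication, whereas CHG methylation is kept by the chromomethylase CMT3 together with histone H3K9 methylation laid down by KYP and its relatives. CHH methylation has no symmetric partner strand and is set anew by CMT2 in long heterochromatic elements and by RNA-directed DNA methylation through DRM2 at short elements and at element edges, while the glycosylases ROS1, DME, DML2 and DML3 remove methylation in all contexts. Bodies of many expressed genes carry CG methylation alone, whereas silent transposable elements (TEs) carry all 3 contexts, and an altered CG state can be inherited as an epiallele.

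A set of 10 regions is printed here as examples of the kinds of change described below, namely CG gains and losses between genes, in a gene and in TEs, CHG gains in 3 TE families, a CHG gain in a gene of *dcl4* and a CHG loss of *uvr3 phrI*. They were read from the TAIR10.1 reference genome of RefSeq on the + strand, 5′ to 3′, with the listed start taken as the base before the first letter. In the first 5 the capitals mark CG sites, in the last 5 they mark the CHG sites of either strand (CAG, CTG, CCG and CGG).
*ddb2* CG gain between genes, chr5:19531501-19531700: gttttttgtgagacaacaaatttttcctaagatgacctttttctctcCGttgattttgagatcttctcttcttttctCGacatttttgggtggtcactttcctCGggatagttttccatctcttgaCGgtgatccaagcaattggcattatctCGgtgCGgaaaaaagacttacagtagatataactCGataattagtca
*ddb2* CG gain in AGO10, chr5:17616301-17616500: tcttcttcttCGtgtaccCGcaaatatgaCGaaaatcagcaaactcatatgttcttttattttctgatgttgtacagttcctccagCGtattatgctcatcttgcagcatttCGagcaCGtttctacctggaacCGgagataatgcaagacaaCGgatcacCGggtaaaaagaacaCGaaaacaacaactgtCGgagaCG
*ddb2* CG loss between genes, chr3:16754651-16754950: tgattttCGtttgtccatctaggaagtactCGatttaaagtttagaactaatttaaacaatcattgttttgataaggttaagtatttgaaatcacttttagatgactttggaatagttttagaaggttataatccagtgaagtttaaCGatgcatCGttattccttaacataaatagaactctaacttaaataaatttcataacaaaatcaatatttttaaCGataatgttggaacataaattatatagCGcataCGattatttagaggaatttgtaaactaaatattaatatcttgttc
*ddb2* CG loss in a TAG2 element, chr5:13777201-13777400: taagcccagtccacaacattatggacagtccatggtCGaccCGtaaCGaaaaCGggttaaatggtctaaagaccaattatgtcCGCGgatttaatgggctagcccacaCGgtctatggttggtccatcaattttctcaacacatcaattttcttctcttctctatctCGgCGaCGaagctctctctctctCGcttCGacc
*ddb2* CG, CHG and CHH loss in ATCOPIA51, chr4:5988001-5988200: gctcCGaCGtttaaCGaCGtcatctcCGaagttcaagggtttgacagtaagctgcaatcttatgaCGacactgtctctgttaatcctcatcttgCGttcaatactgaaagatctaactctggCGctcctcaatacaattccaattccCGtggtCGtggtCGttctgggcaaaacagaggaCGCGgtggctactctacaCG
*ddb2* CHG gain in ATCOPIA23, chr3:22232501-22232700: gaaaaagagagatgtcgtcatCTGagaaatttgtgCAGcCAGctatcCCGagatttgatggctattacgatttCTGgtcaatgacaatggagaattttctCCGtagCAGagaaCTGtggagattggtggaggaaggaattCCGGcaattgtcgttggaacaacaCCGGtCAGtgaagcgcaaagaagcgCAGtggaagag
*ddb2* CHG gain in META1, chr5:10402801-10403050: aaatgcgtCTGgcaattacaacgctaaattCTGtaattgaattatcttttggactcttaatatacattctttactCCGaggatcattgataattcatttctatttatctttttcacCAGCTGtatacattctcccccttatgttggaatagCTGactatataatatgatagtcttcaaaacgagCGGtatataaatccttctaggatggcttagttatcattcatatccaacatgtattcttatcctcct
*ddb2* CHG gain in an ATHILA2 element without any CG site, chr3:13636351-13636550: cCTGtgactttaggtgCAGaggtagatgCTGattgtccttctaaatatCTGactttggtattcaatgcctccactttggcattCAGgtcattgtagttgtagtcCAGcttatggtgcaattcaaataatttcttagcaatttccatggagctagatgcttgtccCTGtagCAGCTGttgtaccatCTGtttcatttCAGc
*dcl4* CHG gain in NIA2, chr1:14161401-14161600: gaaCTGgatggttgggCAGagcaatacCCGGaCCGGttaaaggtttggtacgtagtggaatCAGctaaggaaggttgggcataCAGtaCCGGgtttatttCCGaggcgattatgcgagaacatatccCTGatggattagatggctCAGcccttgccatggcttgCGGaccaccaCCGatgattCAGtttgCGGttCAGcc
*uvr3 phrI* CHG loss in ATENSPM6, chr3:14828851-14829050: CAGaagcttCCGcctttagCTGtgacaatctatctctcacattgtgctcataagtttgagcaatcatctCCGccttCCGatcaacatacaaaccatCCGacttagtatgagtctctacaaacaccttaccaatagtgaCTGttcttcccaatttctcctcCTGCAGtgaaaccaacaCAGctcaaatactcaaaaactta
The first *ddb2* region went from a CG level of 0% to 90.6% over 14 cytosines, the AGO10 region from 28.6% to 81.2% over 24, the intergenic loss from 79.5% to 0% over 15, the TAG2 element from 79.7% to 3.0% over 24 and ATCOPIA51 from 89.1% to 16.5% over 28. In CHG, ATCOPIA23 went from 7.5% to 56.9%, META1 from 24.8% to 70.3%, ATHILA2 from 34.7% to 63.1%, NIA2 from 4.6% to 26.3% and ATENSPM6 from 61.3% to 41.1%. Sites were counted as cytosines of both strands.

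Of the 1250 members, *ddb2* held 1100 (88.0%, 95% CI 86.1 to 89.8%), *dcl4* 104, WT 32, *uvr3 phrI* 8 and *ago1* 6. CHG and CG made up 10.9% of all *ddb2* DMRs (1100 of 10098, 10.3 to 11.5%), against 1.60% in WT (32 of 1998), 1.56% in *dcl4* (104 of 6680), 0.285% in *uvr3 phrI* (8 of 2811) and 0.196% in *ago1* (6 of 3059). Each CG DMR held at least 14 CG cytosines and each CHG DMR at least 9 CHG cytosines of the reference. Such counts cannot show in which context a level was measured, since many regions hold cytosines of all contexts.

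The libraries labelled *ddb2* 24h and *ago1* 24h share values, which bears on all *ddb2* and *ago1* members. The lists of both genotypes had 96 CHH DMRs with the same start and end, and at 78 of them the level at 24h was identical whereas no level at time point 0 was. The remaining 18 differed by at most 4.69 points at 24h. None of the other pairs of genotypes shared an identical level at either time point, with medians of 4.48 to 12.7 points between their 24h levels. The only pair of overlapping members of both genotypes, in the SIMPLEGUY1 element AT1TE85105, also had the same 24h level of 55.7% although the region ended further on in *ddb2*, from 18.4% in *ddb2* and from 21.9% in *ago1*. Whether the same 24h library entered both comparisons was not tested, so for the members of both genotypes a change upon UV-C and a difference between the plants of the time points cannot be told apart. Without *ddb2*, 150 members remained in 14548 DMRs (1.03%, 0.873 to 1.21%), of which 128 were gains (85.3%). Without *ddb2* and *ago1*, 144 remained in 11489 (1.25%), of which 123 were gains (85.4%).

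The direction of the CHG DMRs differed between the lists. In *ddb2* 1018 of 1051 were gains (96.9%, 95.6 to 97.8%), in *dcl4* 103 of 104, in WT 19 of 31, in *ago1* 5 of 6 and in *uvr3 phrI* 0 of 8. The CHH DMRs of the same lists had 96.7% gains in *ddb2*, 95.01% in *dcl4*, 55.3% in WT, 52.0% in *ago1* and 15.4% in *uvr3 phrI*. In *ddb2*, *dcl4* and *uvr3 phrI* the CHG DMRs thus went the way of the CHH DMRs. In WT the interval of the CHG gains (42.2 to 78.15%) includes an even split, so no direction is read for its CHG DMRs. In *ago1* the CHH DMRs were near even, and its 6 CHG DMRs (interval 35.9 to 99.6% gains) are too few to judge. CG DMRs occurred in *ddb2*, with 22 gains and 27 losses (44.9% gains, 30.7 to 59.8%), and in WT, with 1 gain. The CG gains and losses of *ddb2* were thus close to even in number while its CHG and CHH DMRs were mostly gains.

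**Figure D1:**
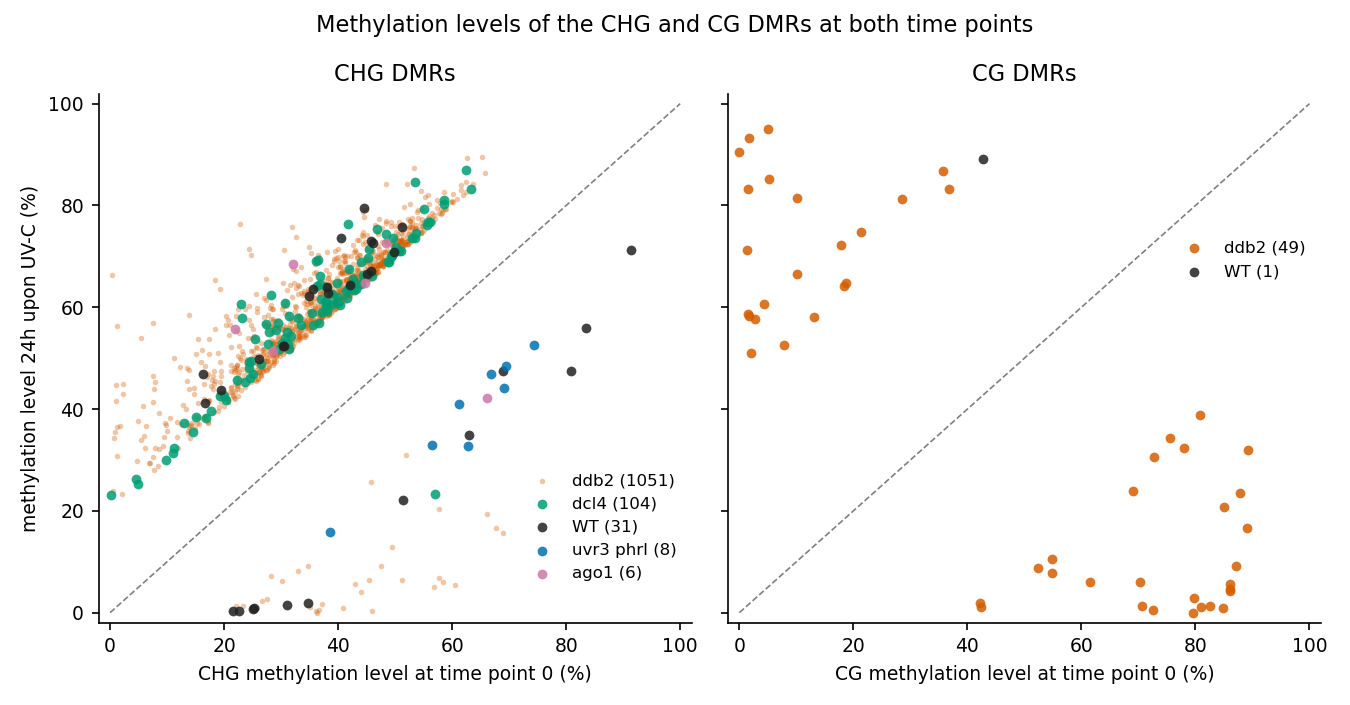
Level at time point 0 (x axis, %) against the level 24h upon UV-C (y axis, %) of each CHG DMR (left) and CG DMR (right), coloured by genotype with the number of regions in brackets, and with a dashed line of equal levels. The CHG gains form a band that starts 20 points above the line, most of it between 20 and 60% at time point 0, whereas 27 of the 49 *ddb2* CG DMRs lie under 10% at one time point and over 50% at the other.

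CHG gains in *ddb2* were moderate shifts at regions that were already methylated. Their level at time point 0 ranged from 0.334 to 65.8%, with a median of 37.6% (36.7 to 38.5%), and at 24h the median was 61.9% (61.0 to 62.7%). The median gain was 22.9 points (22.6 to 23.1), close to the 20 points that a CHG DMR needs, and the largest was 66.0 points. At 893 of the 1018 the level at time point 0 lay between 20 and 60%, and at 39 it was under 10%. The *dcl4* gains had much the same levels, from a median of 37.1 to 61.0% with a median gain of 22.4 points (21.8 to 23.3), and so had the WT gains, from 38.3 to 64.0% with a median gain of 24.6 points. The region just inside the limit was, for *ddb2* gains, in an ATLINE1A element (chr1:19219800-19220250, 45.6 to 65.6%) and, for *ddb2* losses, chr1:7066000-7066250 (45.7 to 25.6%). In WT these were an ATHILA2 element (chr4:4426400-4426600, 49.9 to 70.9%) and chr4:10492000-10492200 (91.3 to 71.2%). Regions just outside the limit are not listed.

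The CHG losses and the CG DMRs of *ddb2* had larger changes than its CHG gains, many to or from a level under 10%. A CG DMR needs a larger minimum change than a CHG DMR, which largely fixes this order for the CG DMRs. The CHG losses and the CHG gains share the same limit. The 33 CHG losses of *ddb2* went from a median of 43.0% to 5.5%, a median change of -36.3 points, and 26 of them ended under 10%. The 22 CG gains of *ddb2* went from a median of 6.5% to 71.7%, a median gain of 55.7 points (48.9 to 71.5), and 12 of them rose from under 10% to over 50%. The 27 CG losses went from a median of 79.5% to 6.1%, a median change of -64.2 points (-77.9 to -45.2), and 15 of them fell from over 50% to under 10%. The 8 CHG losses of *uvr3 phrI* went from a median of 64.8% to 42.6%, and the lowest of them ended at 15.9%. In WT 6 of the 12 CHG losses ended under 2%, and the single losses of *dcl4* (57.0 to 23.2%) and *ago1* (66.2 to 42.2%) did not end under 10%.

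Members were short. The median length was 300 bp for the *ddb2* CHG gains and losses and for the CG gains, and 250 bp for the CG losses, where a window of the calling is 200 bp. The longest CHG gain of *ddb2* spanned 1500 bp and reached into an ATLINE1A and an ARNOLDY2 element (chr3:15611400-15612900, 44.1 to 64.5%), and the longest CG DMR spanned 750 bp and overlapped ATCOPIA68 (chr3:14761500-14762250, 2.8 to 57.8%). Some members of the same kind overlap each other, namely 41 of the 1018 CHG gains, 10 of the 33 CHG losses, 4 of the 22 CG gains and 8 of the 27 CG losses, so neighbouring values below are not independent.

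CG and CHG DMRs of *ddb2* lay in different parts of the genome. By midpoint, 72.6% of the CHG DMRs were in TEs (763 of 1051, 69.8 to 75.3%), 7.04% in protein-coding genes (PCGs) and 20.4% between them, where TEs cover 20.6%, PCGs 49.3% and intergenic sequence 30.1% of the genome. Of the CG DMRs 28.6% were in TEs (14 of 49, 16.6 to 43.3%), 36.7% in PCGs (18 of 49, 23.4 to 51.7%) and 34.7% in intergenic sequence. The TE share of the CG DMRs was 44.0 points lower than that of the CHG DMRs (interval of the difference -55.1 to -29.9), and their PCG share was 29.7 points higher (17.5 to 43.8). The TE share of the CHG DMRs and that of the *ddb2* CHH DMRs (70.8%) differed by 1.82 points (-1.11 to 4.59), an interval that includes 0. The CHG losses differed from the CHG gains, with 15 of 33 in TEs against 748 of 1018, a difference of -28.0 points (-43.9 to -11.2).

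**Figure D2:**
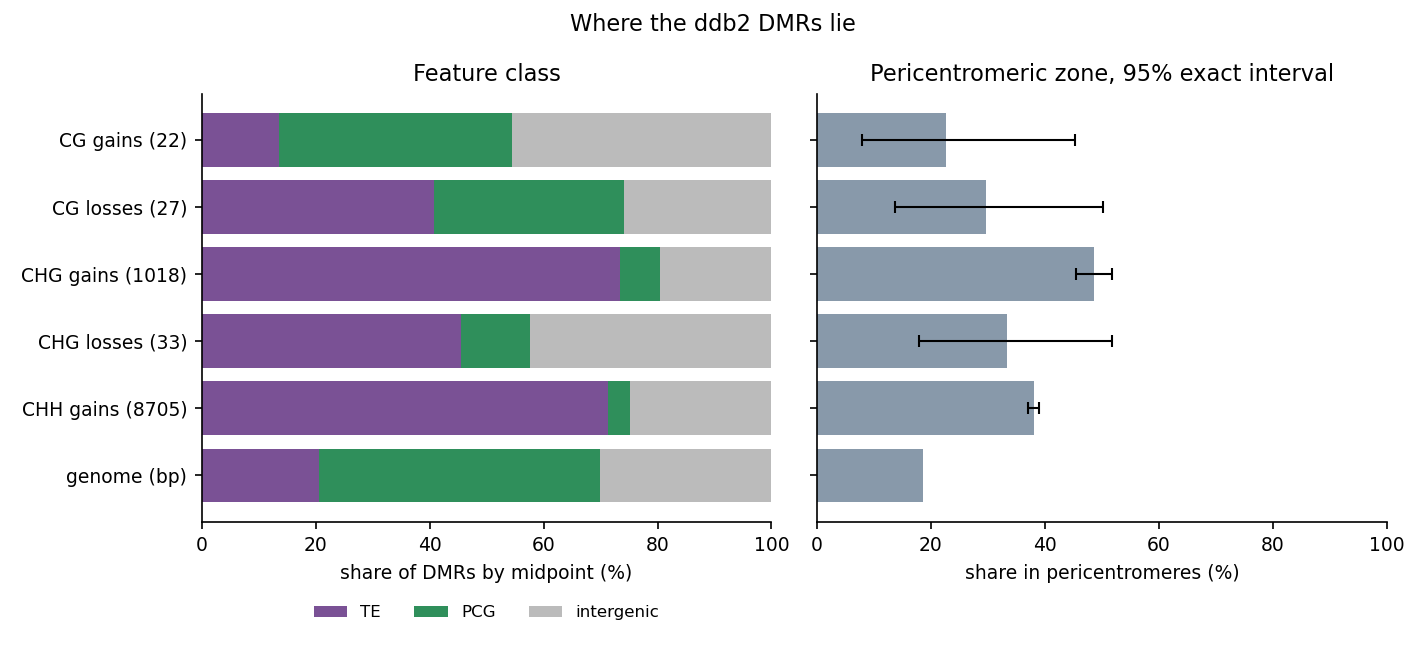
Left, share of *ddb2* DMRs (x axis, %) whose midpoint lies in a TE, a PCG or intergenic sequence, for each context and direction with the number of regions in brackets, above the same shares of genome bases. Right, share in pericentromeric zones (x axis, %) with exact 95% intervals. TEs hold 73.5% of the CHG gains and 13.6% of the CG gains, and the pericentromeres hold 48.6% of the CHG gains and 18.6% of the genome.

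The pericentromeres, defined as the zones around the centromeres with less than 50% of the median gene coverage, held 48.1% of the *ddb2* CHG DMRs (45.1 to 51.2%), 38.0% of the CHH DMRs and 26.5% of the CG DMRs (14.9 to 41.1%). The CHG share was 10.1 points above the CHH share (6.93 to 13.3), and within TEs alone the difference was 13.2 points (9.45 to 16.9). It held with narrower zones (8.82 points) and with wider ones (9.03 points), but among the 128 CHG DMRs of at least 30 points the pericentromeric share was 39.1%, and the difference was 1.02 points (-7.06 to 9.73). Against the 941 CHH DMRs of at least 20 points it was 21.05 points (16.8 to 25.1), so its size depended on the limits of both contexts. In *dcl4* 52.9% of the CHG and 50.2% of the CHH DMRs were pericentromeric, a difference of 2.69 points (-6.91 to 12.1).

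CHG gains of *ddb2* lay in longer TEs than CHH gains did. Counted once per DMR, the median TE length was 2299 bp (2017 to 2659) for CHG gains and 1244 bp (1212 to 1277) for CHH gains. An element with several DMRs thus counts several times, with 731 CHG gains in 668 elements and 6156 CHH gains in 4589. All annotated TEs, counted once each, had a median of 309 bp. That is an unlike measure, since a midpoint falls more often in a long element. TEs over 2 kb held 53.9% of the CHG gains in TEs (50.2 to 57.6%) and 35.6% of the CHH gains (34.4 to 36.8%), where such TEs make up 51.9% of all annotated TE bases. By bases, the CHG gains were thus close to the share of long TEs and the CHH gains below it. The difference between the contexts was seen in the pericentromeres (64.3 against 46.6%) and in the arms (42.4 against 28.5%). CHG gains lay at a median of 439 bp from the nearer end of their element, against 227 bp for CHH gains. The length of an element bounds this distance, and the position relative to the length was not calculated. The distance is therefore not read as a trait apart from length. In *dcl4* the order was the opposite for the medians, 1688.5 bp for 62 CHG gains and 1971 bp for CHH gains, with an interval of 1101 to 2790 bp for the former that includes the latter.

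The 731 CHG gains of *ddb2* that lay in an annotated TE were spread over 668 elements of 176 families. ATGP1, a Gypsy-type LTR retrotransposon, had most of them with 33 in 28 copies, followed by ATHILA2, another LTR retrotransposon, with 32 in 28 copies. The Helitron families ATREP3 and HELITRONY3 had 21 each, META1 20, SIMPLEGUY1 18, ATHILA6A 17, ATHILA4 15, VANDAL3, a Mutator-like DNA transposon, 15 and the LINE ATLINE1A 13. SIMPLEGUY1 and HELITRONY3 started lowest among them, at medians of 24.0 and 27.9%, and ATHILA2 highest, at 46.2%. By name group, ATHILA elements held 16.7% of the CHG gains in TEs (14.1 to 19.6%) and 8.04% of the CHH gains, where they make up 19.2% of the annotated TE bases, so their CHG share was near that of the bases and their CHH share below it. ATCOPIA held 9.30% of the CHG and 3.75% of the CHH gains (6.72% of bases), ATLINE 7.39 and 3.87% (4.07%) and ATGP 6.57 and 3.62% (4.69%). Other groups went both ways. VANDAL held 11.6 and 8.61% (9.31%), ATENSPM 3.28 and 1.85% (4.72%) and ATHAT 2.46 and 1.53% (1.25%). The ATHAT interval for CHG (1.47 to 3.86%) includes its CHH share. Lower among the CHG than the CHH gains were ARNOLD (3.01 and 5.31%), BRODYAGA (1.37 and 2.50%), ATMU (0.958 and 2.45%) and TAG (0.684 and 0.975%). The Helitron groups were also lower, with 13.7% of the CHG gains (11.3 to 16.4%) and 29.3% of the CHH gains for ATREP (21.9% of bases) and 5.47 and 9.06% for HELITRON (10.1%). In *dcl4* ATHILA held 14.5% of the 62 CHG gains in TEs (6.86 to 25.8%) and 19.2% of the CHH gains, an order opposite to that in *ddb2* but within the interval. Of the 11 CHG losses in annotated TEs, 5 were in ATCOPIA elements.

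**Figure D3:**
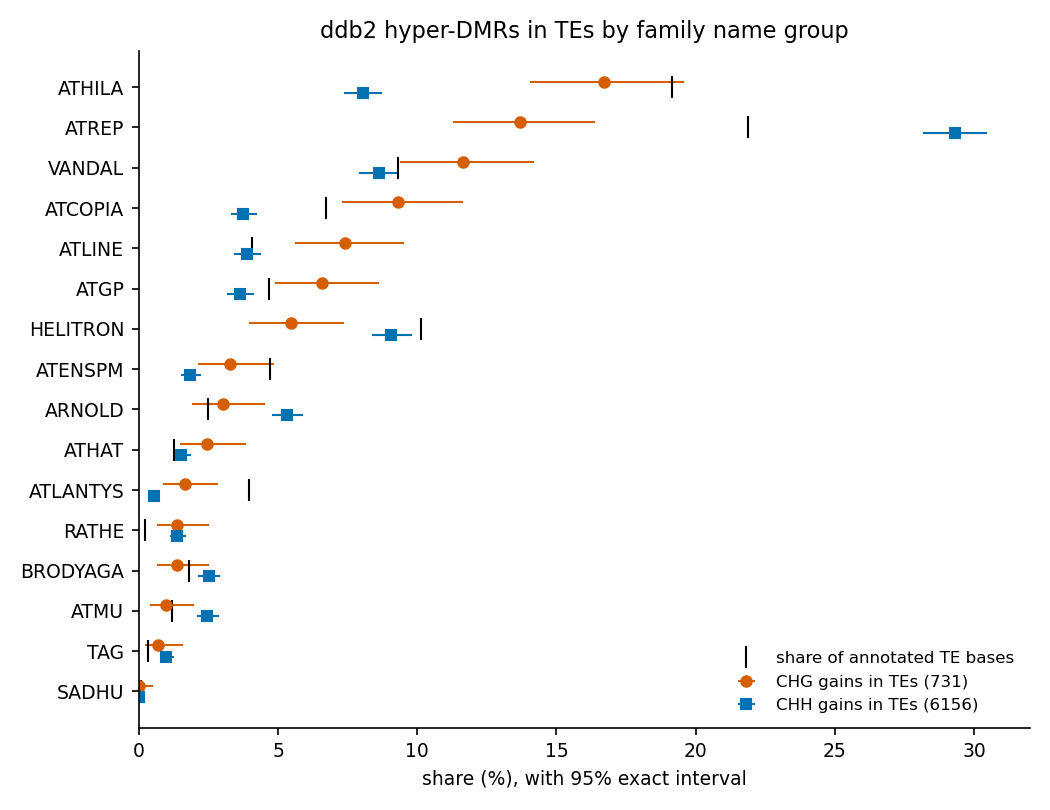
Share (x axis, %, with exact 95% intervals) of the 731 *ddb2* CHG gains (circles) and the 6156 *ddb2* CHH gains (squares) in TEs by group of family names, with the share of annotated TE bases as a black bar. ATHILA and ATCOPIA have higher shares of the CHG gains than of the CHH gains, and ATREP and HELITRON have lower ones. The ATHILA share of the CHG gains is 16.7% and that of the bases 19.2%.

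Most CHG DMRs were also listed in CHH. In *ddb2* 764 of 1051 CHG DMRs (72.7%, 69.9 to 75.4%) overlapped a CHH DMR of the same direction, 739 of them with the same start and end, whereas 757 of 8998 CHH DMRs (8.41%) overlapped a CHG DMR. In the other genotypes the overlap was found for 91 of 104 members in *dcl4*, 25 of 32 in WT, 8 of 8 in *uvr3 phrI* and 6 of 6 in *ago1*, together 130 of 150 (86.7%, 80.2 to 91.7%), all with the same start and end. At the 720 regions that *ddb2* listed as gains in both contexts with the same ends, the median gain was 23.8 points in CHG (from 35.8%) and 13.4 points in CHH (from 10.1%). CHG gained more than CHH at 704 of them (97.8%), an order that the limits of 20 and 10 points largely fix. In WT the 9 regions that lost both contexts had median changes of -24.4 points in CHG and -28.4 points in CHH, and CHG lost more at 4 of the 9.

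**Figure D4:**
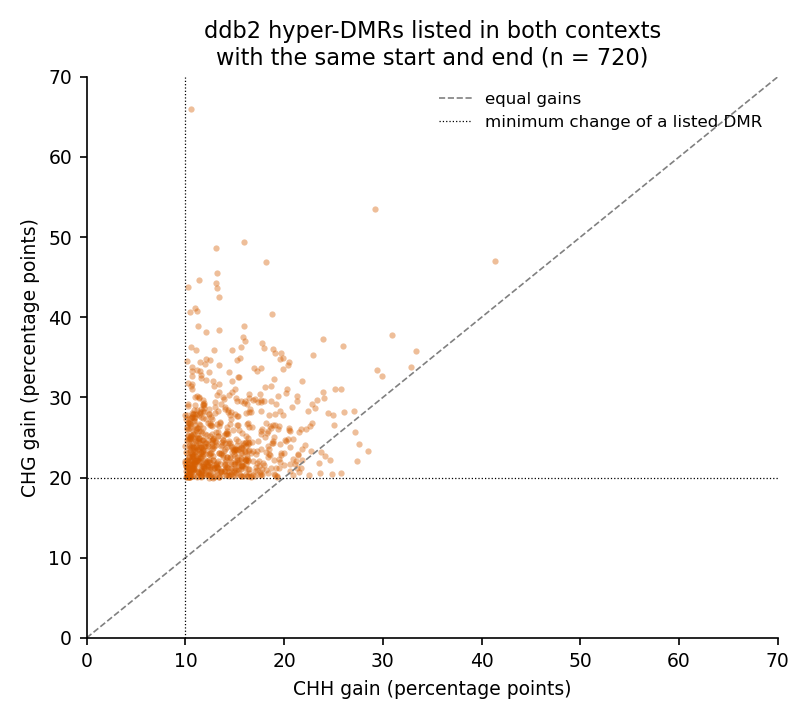
Gain in CHH (x axis, percentage points) against gain in CHG (y axis, percentage points) at the 720 *ddb2* regions listed as hyper-DMRs in both contexts with the same ends. Dotted lines mark the smallest listed change in each context and the dashed line equal gains, and 704 of the points lie above the dashed line.

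The 276 CHG gains of *ddb2* without a CHH gain differed from the others in position and in sequence. Of these 69.9% were pericentromeric (64.1 to 75.3%) against 40.7% (37.1 to 44.3%) of the 742 with a CHH gain, a difference of 29.2 points with an interval of 22.5 to 35.4. In TEs lay 83.3% against 69.8%, and the median TE was 4569 bp (4051 to 5070) against 1442 bp (1245 to 1796) long. They held 11 CHG cytosines per 100 bp against 4.57, at the same median of 4 CG cytosines per 100 bp. They were also shorter, at a median of 200 against 350 bp, and gained less, at a median of 21.5 against 23.8 points. The density of CHG sites also sets how many cytosines enter a window, and its part in the calling was not tested. Among all CHG gains 21 regions, such as the ATHILA2 element printed above, held no CG site in the reference.

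CHG losses of *ddb2* coincided with CG DMRs more often than CHG gains did. Of the 33 CHG losses 14 overlapped a CG loss (42.4%, 25.5 to 60.8%), whereas 11 of the 1018 CHG gains overlapped a CG gain (1.08%, 0.541 to 1.93%). Some of these regions share a locus, with 4 of the gains at chr1:19962950-19964300 and 3 of the losses each at chr4:5987650-5988550 and chr5:14088850-14089750. The intervals treat such neighbours as independent, and the comparison was not made per locus. Seen from the CG side, 12 of 22 gains and 13 of 27 losses overlapped a CHG DMR of the same direction (25 of 49, 51.0%, 36.3 to 65.6%), and 27 of 49 (55.1%) overlapped a CHH DMR. Merged within 2 kb, the 22 CG gains fell into 18 loci and the 27 CG losses into 22 loci.

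The strongest gains of both contexts lay in a stretch of chromosome 1 over MRD1 (AT1G53480), a gene named for its response in the *mto1* mutant, and the 5′ part of HEI10 (AT1G53490), a meiotic crossover factor, which the annotation places on opposite strands over each other. The 4 CG DMRs there (chr1:19962950-19964300) went from 10.2 to 66.6%, from 5.01 to 95.02%, from 1.67 to 93.3% and from 1.29 to 71.2%. The 4 CHG DMRs had the same ends and went from 1.04 to 41.5%, from 0.334 to 66.3%, from 1.26 to 56.4% and from 0.787 to 35.5%, so the region had almost no CHG methylation at time point 0. Of these, 3 were also CHH gains, of 10.5 to 18.8 points. In *dcl4* the locus was listed in CHH only, at chr1:19963900-19964200 from 7.69 to 19.7%. The midpoints fell in untranslated and coding parts of the RefSeq gene models.

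**Figure D5:**
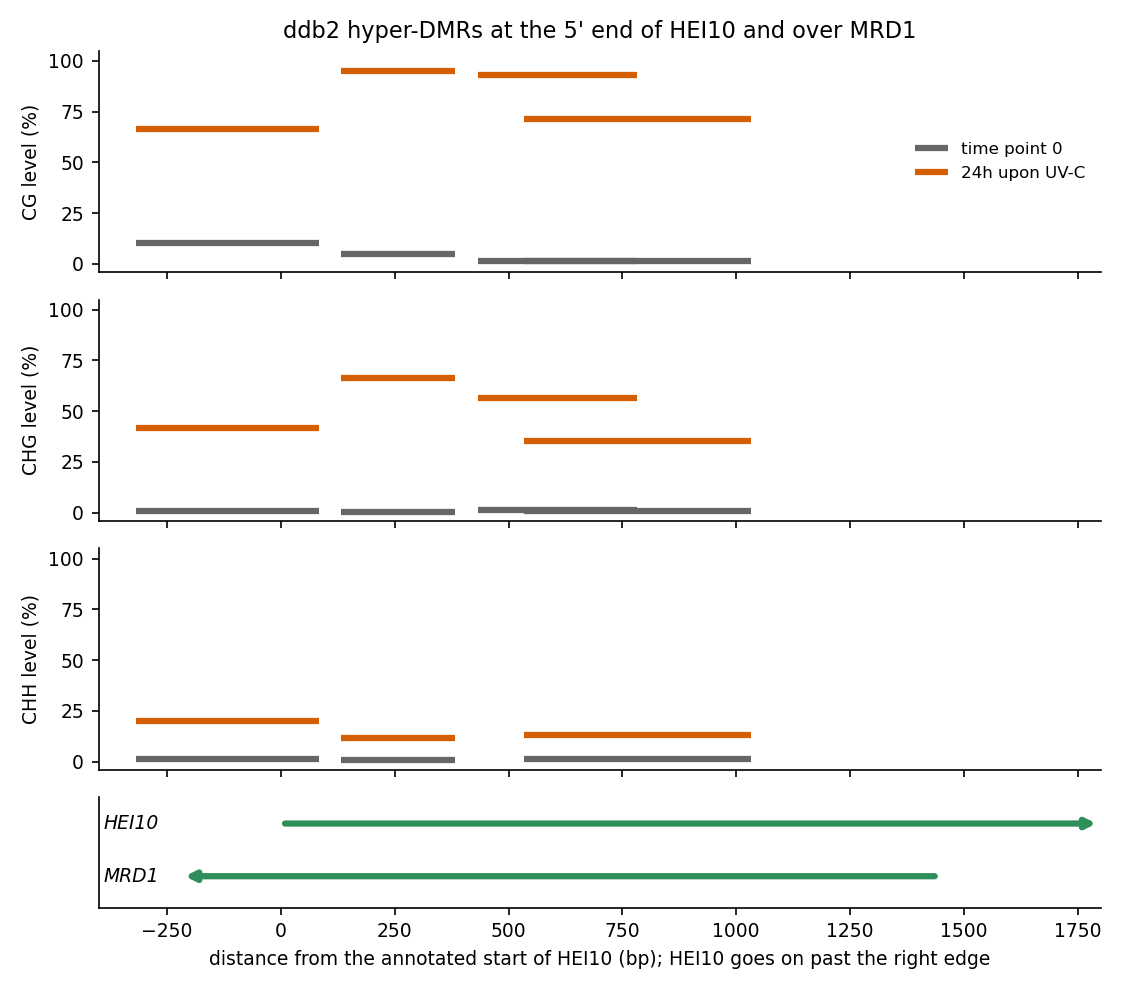
Level (y axes, %) of each *ddb2* DMR in CG, CHG and CHH at time point 0 (grey) and 24h upon UV-C (orange) by distance from the annotated start of HEI10 (x axis, bp), with arrows for the direction of both genes. At 24h the CG levels lie between 66.6 and 95.02%, the CHG levels between 35.5 and 66.3% and the CHH levels between 11.4 and 19.99%, whereas all levels at time point 0 are at most 10.2%.

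Other *ddb2* loci gained CG and CHG together. An intergenic pericentromeric region (chr1:13604600-13605150) went from 10.1 to 81.6% in CG and from 5.35 to 54.0% in CHG, and AT4G16195, a gene of the self-incompatibility protein S1 family, held CG gains from 18.6 to 64.8% and from 35.8 to 86.8% with a CHG gain from 1.2 to 36.5%. AT5G21125, an uncharacterized gene that overlaps ATREP10D and ATLINEIII elements, went from 4.3 to 60.6% in CG and from 2.1 to 23.4% in CHG. The remaining loci with both contexts were chr2:2273700-2274350 in ATLINE1_6 and ATCOPIA58 (CG 36.7 to 83.2%, CHG 39.9 to 69.9%), chr4:1938750-1939050 (CG 17.9 to 72.3%, CHG 13.5 to 45.5%), chr3:1210650-1210850 (CG 13.1 to 58.0%, CHG 5.5 to 33.9%) and chr1:3933000-3933600 (CG 18.4 to 64.2%, CHG 45.0 to 79.0%). Large CG gains without a CHG DMR were seen at chr5:13891050-13891350 (1.52 to 83.3%), at chr2:13127100-13127450, 331 bp from AT2G30800 (5.1 to 85.3%), and at the printed region on chromosome 5, which lies 837 bp from SLY2, an F-box gene of gibberellin signalling. These 3 were CHH gains as well, as were chr3:14761500-14762250 and a region in ATDNA12T3_2 (chr1:21710150-21710500, 2.08 to 50.9%). Gains in CG alone outside genes were seen at chr3:18832000-18832250 (1.48 to 58.6%) and chr4:13538150-13538350 (21.3 to 74.7%).

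The loci with CG and CHG losses were 3 in TEs, 3 between genes and 2 in genes. AT5G35935, annotated as a TE gene, held 3 CG losses, from 85.1 to 20.8%, from 82.5 to 1.22% and from 84.9 to 0.968%, the last of these (chr5:14089450-14089750) with a CHG loss from 36.6 to 0.515%. ATCOPIA51 (AT4TE25200) likewise held 3 CG losses within chr4:5987650-5988550, from 87.8 to 23.6%, from 89.1 to 16.5% and from 89.2 to 31.9%, and its CHG level went from 68.9 to 15.7% at the printed stretch. In AT5G47300, an F-box gene, CG went from 86.0 to 4.61% and CHG from 58.3 to 6.04% (chr5:19198750-19199100), with a second CG loss inside it from 86.0 to 5.61%. AT5G33390, a gene of a glycine-rich protein, went from 86.0 to 4.2% in CG and from 37.1 to 1.68% in CHG, and the TAG2 element AT3TE46170, a hAT-type DNA transposon, from 87.1 to 9.16% in CG and from 44.0 to 4.02% in CHG. The other loci with both were chr2:6877150-6877350 (CG 81.0 to 1.1%, CHG 27.5 to 2.7%), chr1:6263100-6263300 (CG 72.7 to 30.6%, CHG 34.8 to 9.2%) and chr5:15741950-15742500 (CG 61.5 to 6.0%, CHG 26.6 to 2.3%). The CG losses outside genes without a CHG DMR ended low in all but 1 case, at 1.32% (chr2:4871150-4871400, from 70.6%), 0.592% (chr2:14907450-14907650, from 72.6%), 6.12% (chr2:11346400-11346700, from 70.3%), 1.14% (chr5:503100-503400, from 42.4%), 8.78% in a SADHU element (AT4TE03410, from 52.3%) and, at the printed regions, 0% and 2.97%. The exception was ATLINE1_1 (AT4TE31790, 80.7 to 38.8%).

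In 9 of the 18 CG DMRs of *ddb2* within PCGs no CHG or CHH DMR overlapped, against 6 of the 31 outside PCGs, a difference of 30.6 points with an interval of 3.70 to 53.9. These CG-only changes in genes all had their midpoint in coding sequence. Gains were found in KUP6 (AT1G70300), a potassium transporter, from 7.9 to 52.7%, in the protein kinase gene AT2G18890 from 1.64 to 58.4%, and in AGO10 (AT5G43810), an Argonaute of shoot meristems, from 28.6 to 81.2%. Losses were found in UGT84A1 (AT4G15480), a glycosyltransferase, from 77.9 to 32.4%, in RALFL13 (AT2G19045), a gene of a RALF-like peptide, from 54.8 to 7.9%, and in HVA22H (AT1G19950) from 42.3 to 1.91%. AT1G11050 (69.1 to 23.9%) and AT2G05060 (75.6 to 34.4%), both protein kinase genes, and the RNA helicase gene AT1G63250 (54.8 to 10.5%) made up the rest. Within 2 kb of a PCG lay 20 of the 22 CG gains (90.9%, 70.8 to 98.9%) and 20 of the 27 CG losses (74.1%), against 49.1% of the CHG gains (46.0 to 52.2%), 78.8% of the CHG losses and 62.2% of the CHH gains, where 81.3% of all genome bases lie in or within 2 kb of a PCG. The CG shares were thus near that of the genome and the share of the CHG gains below it.

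The largest CHG changes of *ddb2* lay both within and outside the CG loci. After those at MRD1 and HEI10, the largest gains were between the HELITRONY3 element AT5TE37510 and its neighbour TSCL (chr5:10272300-10272600, 22.8 to 76.3%), in ATCOPIA23, in ATREP3 (chr1:8116500-8116750, 18.5 to 65.4%), in BRODYAGA1 (chr3:16708350-16708600, 24.4 to 71.4%) and in META1. The largest losses overlapped ATCOPIA66 (chr4:7089900-7090250, 60.5 to 5.43%), lay at the CG losses in ATCOPIA51 and AT5G47300 and lay at 2 intergenic regions, chr2:1905250-1905550 (56.7 to 5.13%) and chr4:17624950-17625200 (67.7 to 16.6%). In PCGs lay 70 of the CHG gains, in 65 genes, with 50 of the midpoints in coding sequence, 13 in introns and 8 in untranslated parts, where a midpoint in overlapping genes counts in each. Of 28 listed genes of DNA methylation, demethylation, photodamage repair and known epialleles, 1 had a CHG or CG DMR within 2 kb, DML2 (AT3G10010), with a *ddb2* CHG gain from 46.7 to 67.0% (chr3:3080250-3080700). Over all 27206 PCGs this share was 3.17%, so 1 of 28 is near it. MET1, CMT3, ROS1, the 5 photodamage repair genes and the epiallele genes FWA, SDC, QQS and BNS had none. Photolesion-enriched regions of *ddb2* overlapped 5 of the 1100 members (0.455%, 0.148 to 1.06%) and 0.645% of the CHH DMRs, a share within that interval. They cover 0.134% of the genome, but this share of bases cannot be set against shares of DMRs with at least 1 shared bp. The overlap share of regions placed at random was not calculated.

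In *dcl4* both nitrate reductase genes gained CHG and CHH methylation over long stretches. In NIA1 (AT1G77760) a CHG DMR of 1700 bp, the longest member of any list, went from 9.82 to 29.95% (chr1:29235750-29237450), and the same stretch went from 9.12 to 32.05% in CHH. In NIA2 (AT1G37130) a CHG DMR of 1550 bp went from 4.84 to 25.3% (chr1:14160400-14161950) and from 6.01 to 31.4% in CHH, with a shorter one of 200 bp inside it. Both genes also held a further CHH gain towards the other end, from 5.91 to 26.3% in NIA1 and from 5.13 to 18.2% in NIA2. No DMR of any other genotype, in any context, overlapped either gene, and neither had a CG DMR, although the stretches hold 132 and 148 CG cytosines.

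The other *dcl4* members lay mostly in TEs. Of its 104 CHG DMRs 62.5% were in TEs and 13.5% in PCGs, and its 14 gains in PCGs fell in 13 genes, each with a CHH gain at the same place, among them EXT6 (AT2G24980), an extensin gene (36.4 to 69.4%), and PME7 (AT1G44980), a pectin methylesterase gene (30.6 to 54.0%). AT5G46450 started lowest, at 0.117%, and ended at 23%. The largest gain was in SIMPLEHAT1 (AT1TE94570, chr1:28912950-28913400, 23 to 60.7%), and the only loss was in SIMPLEGUY1 (AT5TE71350, chr5:19823250-19823600, 57.0 to 23.2%). The gain just inside the limit was chr1:9778250-9778600 (63.3 to 83.3%).

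WT was the only other genotype with a CG DMR, a gain in the VANDAL1 element AT2TE20160 (chr2:4873150-4873350) from 42.7 to 89.2%, where CHH rose from 0.5 to 12.6%. Its largest CHG gain was at ATREP10B and ATCOPIA43 (chr1:13439400-13439700, 44.5 to 79.6%), and its largest loss in ATLANTYS2 (chr3:13241250-13241500, 80.8 to 47.4%). The WT CHG losses fell into 2 kinds. In 6 of the 12 the midpoint was in the coding sequence of a gene, namely CAB1 (AT1G29930), a light-harvesting chlorophyll a/b protein, ECIP1 (AT4G24800), AT2G36360, AT2G45750, AT3G18170 and AT4G15770. All 6 started at 21.6 to 34.7% in CHG, ended under 2% and had a CHH loss at the same place, as in CAB1 from 25.3 to 0.934% in CHG and from 34.9 to 0.935% in CHH. The library of WT at time point 0 had the fewest mapped reads of the methylomes in the study's own table. This bears on all WT members, and its part in these losses was not tested.

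The 8 *uvr3 phrI* members, all CHG losses with a CHH loss at the same ends, overlapped TEs in 7 cases. The largest was in VANDAL2N1 (chr5:1067400-1067850, 62.7 to 32.7%), and others were in 2 ATGP1 elements (66.9 to 46.8% and 38.6 to 15.9%), in ATHILA0_I (69.4 to 48.5%), in ATENSPM6, in TAG2 and VANDAL18NB (chr3:11099350-11100100, 74.3 to 52.5%) and in ATHATN7 (69.0 to 44.2%). The remaining region lay 203 bp from AT4G30960 (chr4:15066600-15066850, 56.5 to 33.0%). Of the 8, 4 overlapped a CHH gain of *ddb2* (interval 15.7 to 84.3%). The same share over all CHH losses of *uvr3 phrI* was not calculated, so this count is not read as particular to the members. All 6 *ago1* members had a CHH DMR of the same direction and ends. Its 5 gains were in ATHILA4C (chr5:13121550-13121800, 32.1 to 68.5%), SIMPLEGUY1, ATHILA2 (28.6 to 51.5%), AT4G11430 (48.4 to 72.6%) and AT5G47300 (44.6 to 64.9%), and the loss was in VANDAL6 (66.2 to 42.2%).

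Members of different genotypes were then compared by overlap. An overlap of CHG or CG DMRs was found for 13 pairs, of which 10 were between *ddb2* and *dcl4*, 2 between WT and *ddb2* and 1 between *ddb2* and *ago1*, all of them CHG gains in both. The *ddb2* and *dcl4* pairs made up 9.71% of the *dcl4* gains and 0.962% of the *ddb2* gains. How often other DMRs overlap these CHG lists was not calculated, so the pairs are not read as many or few. Among them were ATREP11 (AT4TE09400, 22.5 to 54.9% in *ddb2* and 24.7 to 49.5% in *dcl4*), ATCOPIA57 (AT4TE10600, 40.3 to 66.8% and 35.5 to 58.8%), AT9NMU1 (AT5TE08535, 44.4 to 74.0% and 51.0 to 71.1%), RathE2_cons (AT4TE28220, 32.9 to 64.3% and 37.1 to 59.1%) and ATENSPM1A (AT2TE24525, 37.0 to 57.9% and 25.02 to 46.8%). Another had its midpoint in a PCG (chr3:1969800-1970400, 11.9 to 32.4% and 24.3 to 48.1%) and 4 had theirs between genes and TEs. The largest of these 4, at chr4:5557650-5557950 (30.6 to 71.2% and 30.7 to 60.9%), reached into the SIMPLEGUY1 element AT4TE23280. The WT pairs lay in ATHILA2 (AT1TE47320, 38.0 to 64.0% in WT and 39.4 to 71.1% in *ddb2*) and at an intergenic region (chr2:11645700-11646000, 38.3 to 62.7% in WT and 39.6 to 62.1% in *ddb2*). Against the longer CHH lists, 273 of the 1040 *ddb2* gains (26.3%, 23.6 to 29.0%) overlapped a CHH gain of *dcl4*, 139 (13.4%) a CHH gain of *ago1* and 108 (10.4%) a CHH loss of *uvr3 phrI*. The *ddb2* CHH gains overlapped the same lists at 30.8%, 14.1% and 12.8%, so the shares of the members were near or below those of the CHH gains.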

How the data were processed

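By the study's methods, bisulfite reads of each library were mapped to TAIR10 with BSMAP, methylation levels were calculated with the methylation ratio script of BSMAP, and DMRs between time point 0 and 24h were called in 200 bp sliding windows with a Wilcoxon signed-rank test, then joined and recalculated. The deposited DMR lists hold the level at each time point as a fraction with a decimal comma, treated here as a score and multiplied to percent, and the authors deposited 1 list of gains and 1 of losses per genotype. The authors' photolesion regions came from MACS2 2.1 with a fold enrichment ratio, of which only positions were used. The submitters' processing notes also name Bowtie, SAMtools and bedtools.

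Feature classes and TE families were taken from the annotation columns of the deposited small RNA tables, by the midpoint of a DMR and with TEs before PCGs. There, 60 columns of per-sample values matched no sample label and were not used. Of 28496 annotated genes 28009 were found in TAIR10.1 of RefSeq by name on the same chromosome, all with an overlapping span, and 541 of 631 tRNA genes had the same start and end, and gene parts, cytosines and sequences came from RefSeq. Shares carry exact (Clopper-Pearson) intervals, medians intervals from order statistics and differences of shares Newcombe intervals (Python 3.11.15, numpy 2.4.6, pandas 2.3.3, scipy 1.17.1, matplotlib 3.10.9). The overlap and interval functions were tested on simulated data. Overlap meant at least 1 bp.

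The members, the gene lists and the rule for named regions were chosen with earlier results of these data known. That rule took the largest change of each genotype, context and direction, the 8 largest CG changes each way and the 8 largest CHG gains and 5 largest losses of *ddb2*, every CG DMR in a PCG, every CG DMR that overlaps a CHG DMR, regions listed in 2 or more genotypes, the regions just inside the limit, the longest ones and the 10 leading families. NIA2, CAB1 and the other WT coding losses, EXT6, PME7, AT5G46450, the ATHILA2 element without CG sites, the smaller *uvr3 phrI* and *ago1* changes and the CG DMRs outside that rule were chosen after their values were seen. Alternatives were other minimum changes, a minimum length, merging, other class and zone rules and other overlaps. Leaving out WT or *ago1* from the pooled overlap share, the check of the pericentromeric difference and the split of CG DMRs by overlap were added after seeing the data.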

Additional observations from a re-analysis of the deposited data

Results flagged for a closer look

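In *uvr3 phrI* 8 of the 8 CHG DMRs were losses, whereas in *dcl4* 103 of the 104 CHG DMRs were gains, so the lists of these genotypes moved in opposite directions under the same irradiation, with 1 *dcl4* loss as the exception. The CHH DMRs of the same lists went the same way, with 15.4% gains in *uvr3 phrI* and 95.01% in *dcl4*. The difference was not tested, since each genotype and time point is 1 library.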

How the results depend on the processing

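Over 11 results and 46 alternative values, 28 stayed within the interval of the main value and 18 fell outside it. That 0 changed direction was fixed in advance, since shares and gains cannot turn negative, so it says nothing on robustness. With a minimum CHG change of 30 points, CHG and CG made up 1.93% of the *ddb2* DMRs, the gains 83.6% of its CHG DMRs with a median of 34.0 points, 61.7% of the CHG DMRs lay in TEs, 39.1% in pericentromeres and 93.0% overlapped a CHH DMR, and 0 members overlapped a photolesion region. With a minimum CHH change of 20 points CHG and CG made up 53.9% of the *ddb2* DMRs, so this share depends on the limits of the contexts. With DMRs of at least 250 bp the median CHG gain was 23.4 points (mean of all gains 24.5), the pericentromeric share 43.4% and the overlap with CHH 81.0%. By any overlap 80.8% of the CHG DMRs lay in TEs, in the arms alone 66.2% lay in TEs and 83.5% overlapped CHH, pericentromeric shares were 34.6% for zones under 35% of the median gene coverage and 59.6% for 3 Mb on each side, and with 50% of the member covered 0 overlapped a photolesion region. The causes were not tested. Among CHG DMRs of at least 30 points the pericentromeric share lay 3.94 points below that of CHH in the narrower zones (interval -10.3 to 4.03) and 2.1 points below it in the wider ones (-10.6 to 6.54).

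No paired analysis was possible because each genotype and time point is 1 library and no result comes from a test between samples. Depth per region is unknown, and a minimum of 20 or 40 points hides smaller CHG and CG changes.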

Other observations

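Members of 2 or more genotypes lay in 30 TEs or genes, 26 TEs and 4 genes, and in 4 of them the directions differed. AT5G47300, an F-box gene, held the CG and CHG losses of *ddb2* and, elsewhere in the gene, a CHG gain of *ago1* from 44.6 to 64.9%. AT4G11430 held a CHG loss in *ddb2* from 23.4 to 1.21% and a CHG gain in *ago1* from 48.4 to 72.6%. In the ATCOPIA85 element AT5TE77610 CHG went from 43.0 to 5.54% in *ddb2* (chr5:21542950-21543150) and from 55.9 to 76.8% in *dcl4* (chr5:21544350-21544600), and in the ATGP1 element AT3TE52415 from 38.6 to 15.9% in *uvr3 phrI* and from 28.5 to 51.2% in *ddb2*. The TAG2 element AT3TE46170 lost CHG in both *ddb2* and *uvr3 phrI*, at different ends. In each case the regions of the genotypes did not overlap. The *ddb2* and *ago1* values are subject to the identical 24h levels of their lists, so the 2 genes with both directions in these genotypes compare lists whose 24h levels may not be independent.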
